A study of Mus musculus with 6 samples.

Results

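The 10 genes described here encode gut hormones or, in 1 case, the enzyme that begins serotonin synthesis: Cck, Gcg, Gip, Sct, Nts, Sst, Ghrl, Tac1, Pyy and Tph1. They were taken by symbol from a table of 55335 genes, all 10 were found, and all 10 passed the filter on low counts that left 14107 genes to test. RNA-seq had been made from intestinal tissue of mice with colitis induced by dextran sulfate sodium (DSS), with 3 wild-type (WT) and 3 Trmt6-/- animals. All 6 animals had received DSS. The labels give no segment, strain, sex, age, DSS dose or time, and do not say in which cells Trmt6 was deleted. TRMT6 is a subunit of the enzyme that methylates adenosine in tRNA.

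Gut hormones come from enteroendocrine cells, which are scattered, rare cells of the epithelium that release peptides or serotonin from granules when they sense nutrients, microbial products or irritants. Each hormone has a preferred place along the gut. Within the intestine, cholecystokinin (Cck), glucose-dependent insulinotropic polypeptide (Gip), secretin (Sct) and ghrelin (Ghrl) are made mostly in the proximal small intestine. The glucagon-like peptides (from Gcg), peptide YY (Pyy) and neurotensin (Nts) are made more toward the ileum. Somatostatin (Sst) cells occur along the whole length, and serotonin-making enterochromaffin cells express Tph1 and, in part, the substance P gene Tac1. In tissue RNA, fewer cells of a type and less RNA per cell cannot be told apart.

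Values are CPM, the count of a gene divided by the size of its library after TMM scaling, and are given in the order KO72, KO73, KO75 for the libraries labelled Trmt6-/- and WT185, WT186, WT187 for WT. Depth was 15213972 to 16972758 counts a library, and the 10 genes together took 0.0103% to 0.0275% of it. The Trmt6 transcript itself measured 39.8, 34.2 and 36.2 CPM against 30.9, 18.7 and 23.1 CPM in WT, so it was not lower under the Trmt6-/- label (log2 fold change 0.60 ± 0.21 SE, edgeR adjusted p = 0.335), and every direction below rests on the labels. Genes that define enteroendocrine cells were present in every library, with Chga, Chgb, Scg2, Pcsk1 and Neurod1 summing to 137 to 146 CPM under the Trmt6-/- label and 242 to 339 CPM in WT. Several defining genes of neurons, islets and stomach, other possible sources of these transcripts, were near 0, and the colon genes Hoxb13, Hoxd13, Hoxd12 and Hoxa13 were at 0 in all libraries. Among 7 neuronal genes (Elavl3, Elavl4, Uchl1, Phox2a, Vip, Nos1 and Stmn2) no library had more than 5 counts of any, and 2 of them, Vip and Nos1, had none. The islet genes Ins1, Ins2, Ppy and G6pc2 reached at most 7 counts. Iapp, also an islet gene, had 5, 11 and 14 counts under the Trmt6-/- label and 14, 16 and 9 in WT. The whole islet list of 8 genes summed to 81.6 to 312 CPM against 229 to 1126 CPM in WT. Most of that came from Slc2a2, which enterocytes also express. The gastric genes Gkn1, Gkn2, Tff1, Muc5ac and Atp4b reached at most 1 count, while the stomach list of 12 genes summed to 1.78 to 2.65 CPM under the Trmt6-/- label and 0.360 to 7.76 CPM in WT, led by Gkn3 and Pgc in WT185. WT186 stood apart from the other libraries: 8 pancreatic acinar genes, among them Ctrb1 and Cela2a, summed to 62.7 CPM there and to at most 0.279 CPM elsewhere. The whole acinar list of 12 genes differed less, summing to 26.1 to 47.0 CPM under the Trmt6-/- label and 23.7 to 87.7 CPM in WT. WT186 also had the highest mean level of proximal epithelial genes, and the main results are given with and without it.

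The sequence just upstream of 4 of these genes is shown because 3 of them, the proximal hormones Cck, Gip and Sct, separated the groups without overlap on the low side, while Pyy had its higher mean in the libraries labelled Trmt6-/-. Each line is the 150 bases before the annotated start from RefSeq on GRCm38.p6, 5′ to 3′ on the gene's strand, at chr9:121495695-121495844 (minus strand), chr11:96024395-96024544 (plus), chr7:141279134-141279283 (minus) and chr11:102107833-102107982 (minus). Capitals mark the letters searched: the E-box CANNTG, which basic helix-loop-helix factors such as NEUROD1 and NEUROG3 can bind, the half-site TGACG of the cAMP response element, and TATAAA, on both strands.
Cck: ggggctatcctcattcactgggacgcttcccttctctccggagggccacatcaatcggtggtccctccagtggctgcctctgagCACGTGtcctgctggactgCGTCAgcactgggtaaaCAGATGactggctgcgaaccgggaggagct
Gip: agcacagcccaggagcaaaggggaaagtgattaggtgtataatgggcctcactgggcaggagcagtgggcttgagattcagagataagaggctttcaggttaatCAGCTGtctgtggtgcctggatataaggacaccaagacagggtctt
Sct: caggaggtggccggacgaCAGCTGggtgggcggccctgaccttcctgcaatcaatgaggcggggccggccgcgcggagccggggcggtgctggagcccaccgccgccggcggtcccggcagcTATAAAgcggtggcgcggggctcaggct
Pyy: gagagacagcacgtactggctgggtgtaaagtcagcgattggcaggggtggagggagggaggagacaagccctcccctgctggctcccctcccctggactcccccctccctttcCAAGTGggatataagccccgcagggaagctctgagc

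In Cck an E-box begins 66 bases before the start, a half-site (reverse strand) begins at 47 and another E-box at 30. Gip has 1 E-box in the shown stretch, at 46, Sct has 1 at 132 with a TATAAA at 28, and Pyy has 1 at 36. Over the full 250 upstream bases, 9 of the 10 genes had an E-box in at least 1 annotated promoter, against 66.2% of 32851 mouse promoters. The half-site was found in 5 of 10 (Cck, Nts, Sst, Tac1 and Tph1), against 17.8% of promoters, and the full element TGACGTCA in Sst alone, against 1.55%. TATAAA was found in Gcg and Sct, against 12.4%. Several of the 10 genes have more than 1 annotated promoter (15 in all), so a gene had more chances of a match than a single promoter, and a match describes the letters only.

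Of the 10 hormone genes, 8 had a negative log2 fold change and 6 had all 3 libraries labelled Trmt6-/- below all 3 WT libraries: Cck, Gip, Sct, Ghrl, Sst and Tph1. Over all genes tested, 9.03% were separated in that direction. The reverse separation was seen in 0 of 10, against 9.7% of all genes. These 2 shares also apply to the counts of separated genes in the lists below, where all 6 libraries are used. None of the 10 passed edgeR's quasi-likelihood test at an adjusted p of 0.05, which 0.0425% of all genes passed. DESeq2 called 2 of them lower, Cck and Tph1, against 1.83% of all genes, and limma-voom called 0. At an unadjusted p below 0.05 there were 6 on the low side (Cck, Tph1, Sct, Sst, Ghrl and Gcg), against 5.94% of all genes. The median log2 fold change of the 10 was -0.91, beside -0.033 over all genes. The members were chosen with results of these data known, so these shares are a description of them.

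**Figure D1:**
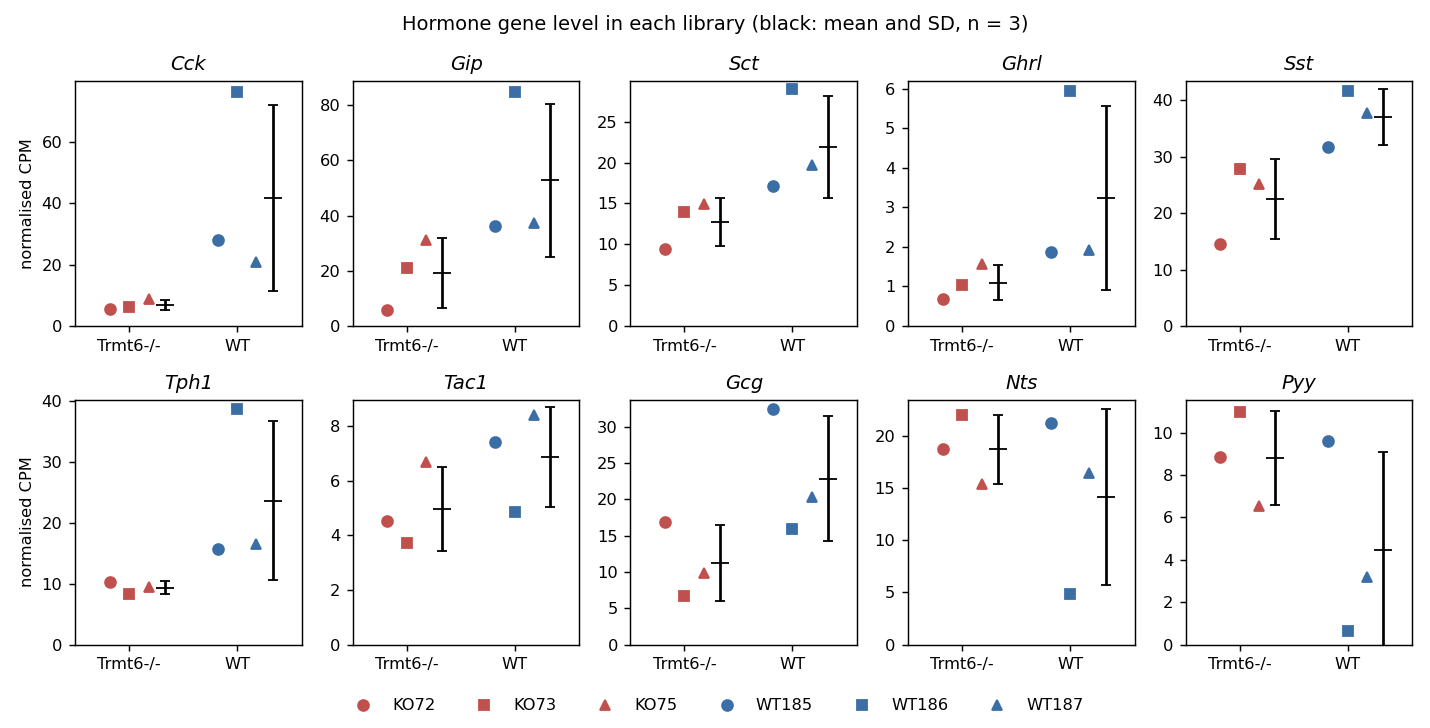
Normalised CPM (vertical axes, from 0) of each hormone gene in each of the 6 libraries, with the mean and SD of each group of 3 in black; the SD bar of Pyy in WT reaches below 0 and is cut there. Cck, Gip, Sct, Ghrl, Sst and Tph1 have all libraries labelled Trmt6-/- below all WT libraries, and WT186 is the highest library for each of these 6.

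Among the proximal hormones Cck, which drives gallbladder contraction, pancreatic secretion and satiety, had the most negative fold change. Positions of the genes are those of the deposited table on mm10, and Cck (ENSMUSG00000032532.7, chr9:121489824-121495694, minus strand) is the first. It measured 5.70, 6.36 and 8.75 CPM under the Trmt6-/- label and 28.0, 76.3 and 20.8 CPM in WT, a mean 6.02-fold higher in WT. The lowest WT library was thus above the highest of the other group by a wide margin. The log2 fold change was -2.59 ± 0.52 (SE), with an unadjusted p of 0.00167 and an adjusted p of 0.173 in edgeR. In DESeq2 its adjusted p was 0.00015, over a range of 0.00015 to 0.586 in 16 alternative fits. Without WT186 the log2 fold change was -1.81 ± 0.28 (edgeR adjusted p = 0.149).

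Gip (ENSMUSG00000014351.12, chr11:96024545-96030831, plus strand), an incretin that raises insulin release after a meal, varied most among the libraries labelled Trmt6-/-. It measured 5.93, 21.0 and 31.1 CPM there and 36.3, 84.8 and 37.2 CPM in WT. The gap between the groups was small next to this spread, with KO75 at 31.1 and WT185 at 36.3 CPM, and the log2 fold change was -1.45 ± 0.61 (edgeR adjusted p = 0.414). Sct (ENSMUSG00000038580.13, chr7:141278330-141279133, minus strand), whose product stimulates bicarbonate secretion, measured 9.37, 13.9 and 14.9 CPM against 17.1, 29.0 and 19.7 CPM (-0.79 ± 0.28, edgeR adjusted p = 0.342). The groups did not overlap, though KO75 and WT185 lay close together. Ghrl (ENSMUSG00000064177.8, chr6:113716119-113719880, minus strand), the gene of the appetite hormone ghrelin, was the lowest of the 10 in counts, with 12, 15 and 22 counts (0.677, 1.05 and 1.57 CPM) against 36, 87 and 32 counts (1.88, 5.94 and 1.92 CPM). Its log2 fold change was -1.56 ± 0.61 (edgeR adjusted p = 0.374) with all of the first group below the second. Annotated exons of Gm26982 and Gm44033 share 15.9% of the exon bases of Ghrl, and reads there could not be assigned without strand, while the other 9 genes share none.

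Without WT186 the log2 fold changes of Gip, Sct and Ghrl were -0.91 ± 0.60, -0.52 ± 0.27 and -0.78 ± 0.50. Each group pair stayed separated in that comparison, in which 15.3% of all genes were separated on the low side.

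Sst (ENSMUSG00000004366.4, chr16:23889573-23890958, minus strand), whose product inhibits the release of most other gut hormones, measured 14.6, 27.9 and 25.1 CPM under the Trmt6-/- label. In WT it measured 31.8, 41.7 and 37.8 CPM, so that KO72 was the low library and the nearest pair, KO73 and WT185, differed by less than the SD of either group (7.05 and 4.96 CPM). The log2 fold change was -0.72 ± 0.26 (edgeR adjusted p = 0.349), and -0.48 without KO72.

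Tph1 (ENSMUSG00000040046.14, chr7:46644641-46672537, minus strand), the gene of the rate-limiting enzyme of serotonin synthesis outside the nervous system, was tight among the libraries labelled Trmt6-/- at 10.3, 8.31 and 9.47 CPM and stood at 15.7, 38.8 and 16.5 CPM in WT. The groups were separate, and WT186 stood well above the other WT libraries. Its log2 fold change was -1.33 ± 0.38 (edgeR adjusted p = 0.264), and -0.77 ± 0.21 without WT186. DESeq2 called it at an adjusted p of 0.0406, with a range of 0.0406 to 0.675 over the 16 alternatives. Mast cells also express Tph1: the mast cell genes Mcpt1, Mcpt2, Cpa3, Fcer1a and Ms4a2 summed to 8.92, 6.15 and 33.0 CPM against 8.44, 3.55 and 10.4 CPM, and were thus highest in KO75 and lowest in WT186, the library with most Tph1. Over the whole list of 11 mast cell genes, of which 4 were tested and 0 separated the groups on either side, the summed level ran from 42.6 to 66.5 CPM and from 19.0 to 53.8 CPM in WT.

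Tac1 (ENSMUSG00000061762.12, chr6:7554879-7565834, plus strand), the substance P precursor gene, which in the gut wall is also a neuronal gene, measured 4.52, 3.70 and 6.69 CPM against 7.40, 4.84 and 8.39 CPM. The groups overlapped through KO75 and WT186, and the log2 fold change of -0.47 ± 0.35 did not pass (edgeR adjusted p = 0.681). Without WT186 they were separate, at -0.66 ± 0.34, and the value ran from -0.74 without KO75 to -0.29 without KO73. Of the whole list of 16 enteric neuron genes 3 were tested, with 1 separate on each side (Ret high, Snap25 low, the latter also an endocrine gene). Among all genes the shares were 9.03% low and 9.7% high. The list summed to 17.8 to 44.3 CPM under the Trmt6-/- label and 9.35 to 10.6 CPM in WT, and most of the sum came from Ret (14.5, 40.9 and 27.7 against 6.20, 4.37 and 4.73 CPM). The part of neuronal RNA in the Tac1 values was not tested. Vip and Nos1 were at 0 throughout.

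The distal hormones had fold changes of both signs. Gcg (ENSMUSG00000000394.15, chr2:62474530-62483650, minus strand), which encodes glucagon-like peptides in intestinal L cells, measured 16.9, 6.71 and 9.89 CPM under the Trmt6-/- label and 32.4, 15.9 and 20.3 CPM in WT. KO72 and WT186 overlapped by a small amount, and the log2 fold change was -1.03 ± 0.41 (edgeR unadjusted p = 0.0406, adjusted p = 0.385). Without WT185 it was -0.67 ± 0.40 (edgeR adjusted p = 0.526). Pyy (ENSMUSG00000017311.15, chr11:102106676-102107832, minus strand), the gene of an appetite-lowering peptide of the same L cells, measured 8.86, 10.97 and 6.55 CPM against 9.59, 0.614 and 3.18 CPM. WT186 had 9 counts of Pyy and WT185 had 184, so the WT libraries spanned more than the other group did, and the log2 fold change of 0.97 ± 0.81 did not pass (edgeR adjusted p = 0.719). It was 0.46 ± 0.51 without WT186 and 2.23 without WT185.

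Nts (ENSMUSG00000019890.4, chr10:102481756-102490486, minus strand), whose product slows motility and promotes fat uptake, measured 18.7, 22.1 and 15.4 CPM against 21.3, 4.84 and 16.5 CPM. Apart from WT186 the libraries of both groups covered overlapping ranges. The log2 fold change was 0.40 ± 0.49 (edgeR adjusted p = 0.823), without WT186 it was -0.00057 ± 0.24, and without WT185 it was 0.84.

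Levels can be compared between genes only per length, as TPM, in which counts are divided by the deposited exon length and then scaled to the same sum in every library. In WT the order of mean TPM was Gip (255 ± 109 SD, n = 3), Sst (175 ± 12.6), Sct (115 ± 21.7), Cck (105 ± 66.3), Gcg (53.4 ± 23.7), Nts (40.4 ± 25.8), Pyy (25.5 ± 27.1), Tph1 (12.7 ± 5.77), Ghrl (9.89 ± 6.16) and Tac1 (7.04 ± 2.32). Of neighbours in that order, Sst and Sct alone had means apart by more than the sum of their SDs. Under the Trmt6-/- label Sst led at 92.8 ± 19.8 TPM, followed by Gip (81.1 ± 48.1), Sct (58.9 ± 6.86), Nts (45.9 ± 9.95), Pyy (42.6 ± 11.8), Gcg (23.7 ± 14.3) and Cck (15.97 ± 2.48). The rank of Cck was thus 4 in WT and 7 here. The last 3 were Tph1 (4.66 ± 1.09), Tac1 (4.42 ± 1.22) and Ghrl (3.00 ± 0.941), and in this group Cck and Tph1 were the only neighbours apart by more than their SDs. Summed over the 10 genes the level was 323, 394 and 402 TPM against 751, 968 and 680.0 TPM in WT. Cck made up 4.76%, 3.51% and 4.65% of that sum under the Trmt6-/- label and 10.5%, 18.7% and 8.31% in WT, whereas Sct kept a nearly even share in all libraries, from 12.9% to 15.99%.

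**Figure D2:**
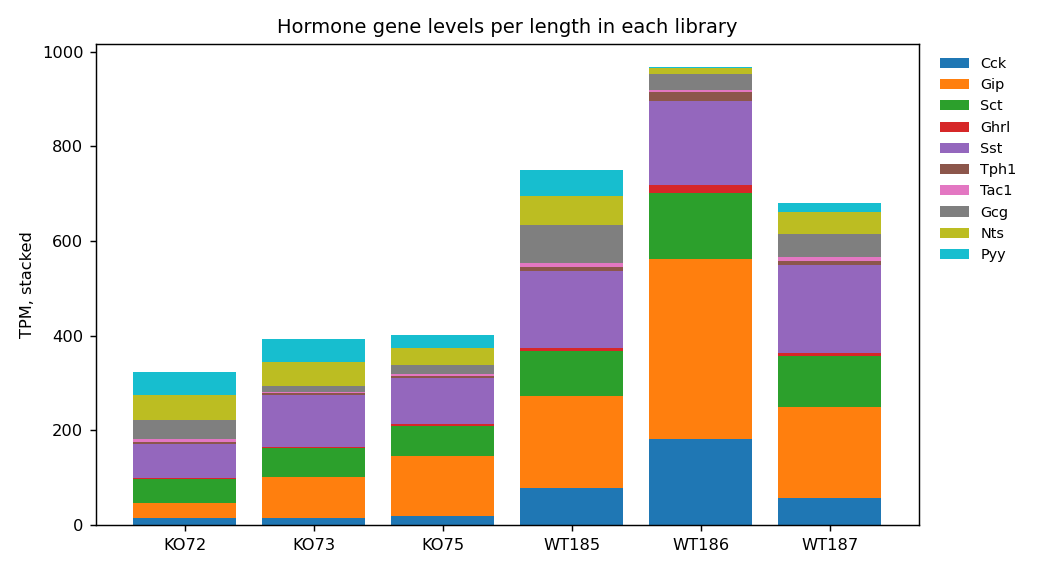
TPM of the 10 hormone genes stacked in each library (vertical axis from 0). The 3 libraries labelled Trmt6-/- reach 323 to 402 TPM and the 3 WT libraries 680.0 to 968 TPM, with Gip, Sst and Sct the largest segments of all WT bars except that Cck exceeds Sst and Sct in WT186.

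The epithelial position of the samples was estimated from genes other than hormones. An index subtracted the mean log2(CPM + 0.5) of the proximal genes Fabp1, Lct, Gata4 and Cybrd1 from that of the ileal genes Fabp6, Fgf15, Slc10a2 and Slc51b. It was 0.59, -1.02 and -3.25 under the Trmt6-/- label and -1.47, -6.82 and -5.64 in WT. The 2 lowest values came about differently: WT186 had the highest mean of the proximal genes (8.89, against 5.75 to 7.27 in the others), and WT187 the lowest mean of the ileal genes (1.63, against 2.07 in WT186 and 3.93 to 6.35 in the others). The ileal genes disagreed in WT187. Fabp6 (0.120 CPM), Slc10a2 (0.659 CPM) and Slc51b (31.3 CPM) were at their lowest there. Fgf15 (3.54 CPM) was near its highest value, 3.61 CPM in KO72, and Osr2 of the whole ileal list stood at 101 CPM, against 119 CPM in KO72. Over the whole lists of 7 ileal and 8 proximal genes, an alternative added after seeing the data, the difference was 0.53, -0.94 and -2.28 against -1.76, -6.03 and -4.08. WT185 was high for both sets, with an ileal mean of 5.44 and a proximal mean of 7.20, the latter above WT187 (6.88). A single difference therefore does not describe each library in full. The distal hormones minus the proximal hormones, as a difference of mean log2(CPM + 0.5), gave 1.66, 0.70 and 0.10 against 0.42, -2.86 and -0.37. This difference and both versions of the index put the 6 libraries in the same order, from WT186 through WT187, KO75, WT185 and KO73 to KO72. The points share libraries and scaling, and no test was made of a score over the members. The difference between group means was 1.76 on this scale and 0.80 without WT186.

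**Figure D3:**
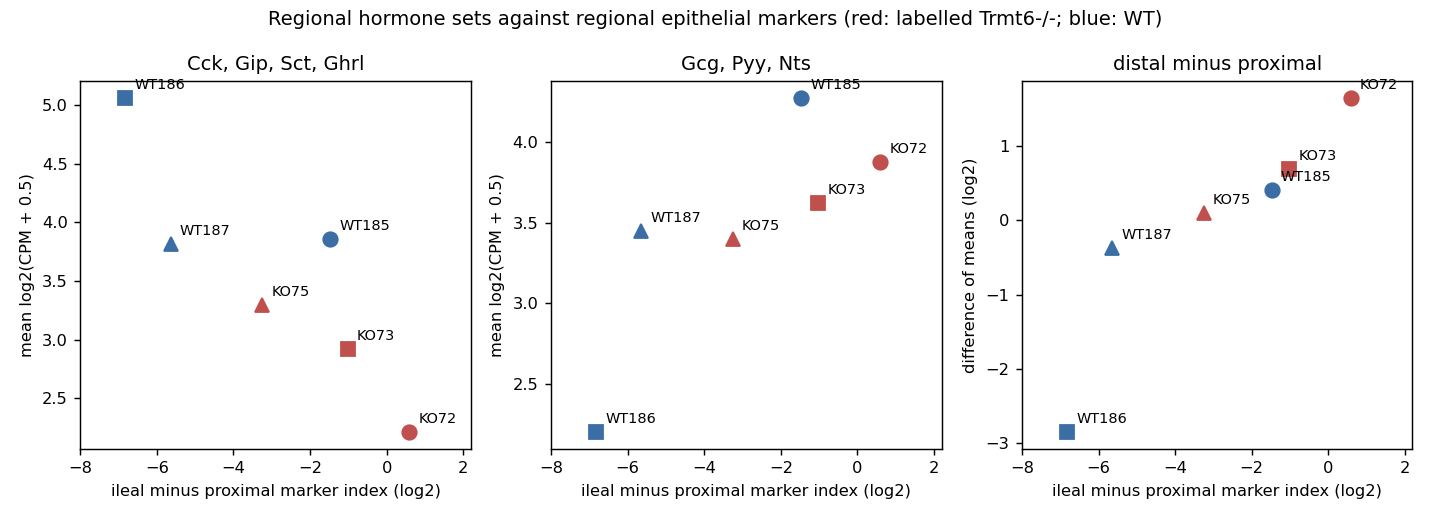
Mean log2(CPM + 0.5) of the proximal hormones (left), of the distal hormones (middle) and their difference (right) against the ileal minus proximal marker index, 1 point a library. On the right the 6 libraries lie in the same order on both axes, and on the left WT185, at an index of -1.47, lies above KO75, at -3.25.

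The proximal hormones alone were not in the order of the index. WT185 had a higher index than KO75 (-1.47 against -3.25) and also a higher mean of the proximal hormones (3.85 against 3.30). Over the whole list of proximal genes WT185 was above KO75 as well (7.20 against 6.52), with Otop3 at 23.8 against 0.640 CPM and Onecut2 at 124 against 18.8 CPM. The 4 proximal genes of the index had the reverse order (6.99 in WT185 against 7.18 in KO75). Fabp1 (511 against 2931 CPM) and Ces2e (705 against 1735 CPM) were lower in WT185, and the other genes of the list were higher there. KO73 and WT185 were the libraries of opposite label nearest in the index of 8 genes. This pair was picked after its values were seen, with 1 library a side and no test. In it Cck stood at 6.36 against 28.0 CPM, Gcg at 6.71 against 32.4, Gip at 21.0 against 36.3 and Tph1 at 8.31 against 15.7. Proximal epithelial genes outside the index also differed in this pair, in both directions. Otop3 stood at 1.82 against 23.8 CPM, Onecut2 at 50.8 against 124 and Adh6a at 183 against 392, whereas Ces2e stood at 1381 against 705. Sct (13.9 against 17.1) and Sst (27.9 against 31.8) lay closer, and Nts (22.1 against 21.3) and Pyy (10.97 against 9.59) were at like levels. By the whole-list index KO75 (-2.28) and WT185 (-1.76) were the nearest instead. Between them Cck stood at 8.75 against 28.0 CPM, Gcg at 9.89 against 32.4 and Tph1 at 9.47 against 15.7. Gip (31.1 against 36.3), Sct (14.9 against 17.1) and Sst (25.1 against 31.8) lay closer, with Nts at 15.4 against 21.3 and Pyy at 6.55 against 9.59.

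With the index as a covariate in edgeR, 0 of the 10 passed and 2 had an unadjusted p below 0.05 on the low side, Cck and Gcg, against 10.7% of all genes in that fit. Cck was at -1.86 ± 0.51 (adjusted p = 0.127) and Gcg at -1.63 ± 0.37 (adjusted p = 0.0978; 0.0532 to 0.789 over all alternatives). Gip, Sct, Ghrl, Sst and Tph1 kept a negative sign at -0.61 ± 0.50, -0.32 ± 0.25, -0.59 ± 0.57, -0.39 ± 0.27 and -0.80 ± 0.45. Tac1 was at -0.43 ± 0.43, Pyy at 0.058 ± 0.61 and Nts, with the opposite sign, at -0.20 ± 0.49. With the whole-list index as covariate Cck and Gcg were again the 2 below that p, against 13.3% of all genes, at -1.55 ± 0.47 (edgeR adjusted p = 0.108) and -1.80 ± 0.37 (edgeR adjusted p = 0.0532). Gip was then at -0.30 ± 0.48, Ghrl at -0.26 ± 0.52 and Pyy, now negative, at -0.33 ± 0.60. The index itself averaged -1.22 ± 1.93 (SD, n = 3) under the Trmt6-/- label and -4.65 ± 2.81 in WT, with overlap. Among its genes, Gata4 separated the groups on the low side (82.2, 132 and 132 against 156, 271 and 214 CPM). Slc51b separated them on the high side (75.6, 90.3 and 99.7 against 46.4, 54.0 and 31.3 CPM), and the other index genes overlapped. The index thus differs with the label, and whether the covariate removes position or genotype was not tested.

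**Figure D4:**
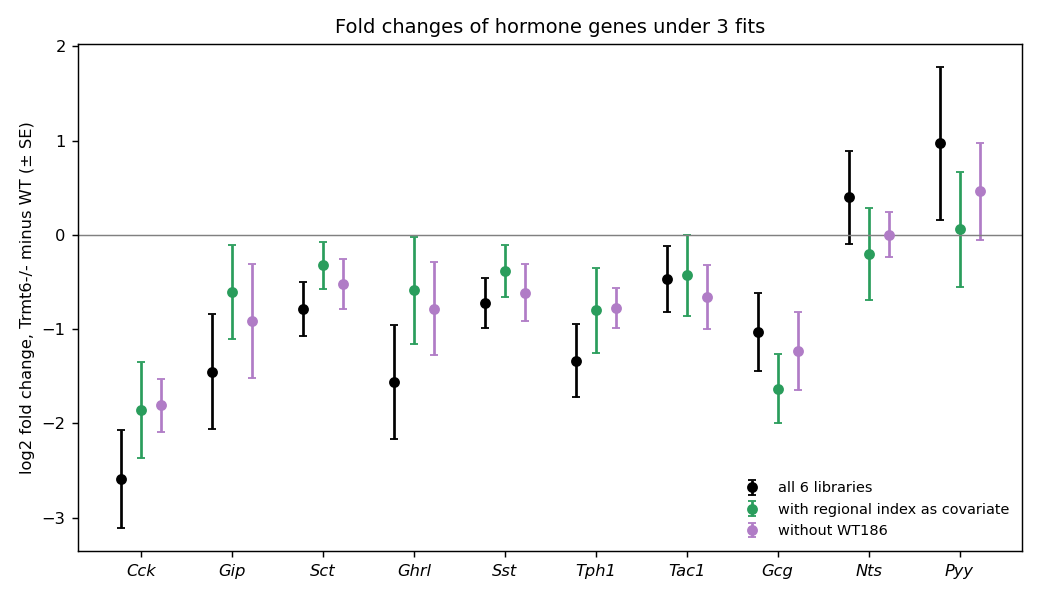
Log2 fold change (vertical axis, libraries labelled Trmt6-/- minus WT, ± SE) of each hormone gene with all 6 libraries, with the regional index as covariate and without WT186. Cck and Gcg lie farthest below 0 with the covariate, at -1.86 and -1.63, and Pyy and Nts lie near 0.

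Each hormone was then set against Chga, a granule protein gene that most enteroendocrine cells share. Chga measured 56.7, 58.2 and 55.9 CPM against 75.0, 95.0 and 82.2 CPM, with no overlap (log2 fold change -0.56 ± 0.14, edgeR adjusted p = 0.210). The log2 ratio of Cck to Chga was -3.21, -3.10 and -2.61 against -1.40, -0.31 and -1.96, a difference of -1.75. Cck and Tph1 (difference -0.62) were the 2 members separated from WT on the low side also relative to Chga, as were 1.09% of all genes tested, both at p = 0.10 in a two-sided exact permutation test, the smallest p that 3 against 3 allows (0.50 after adjustment over the 10 members). For Gip (-1.04), Ghrl (-0.55), Gcg (-0.48), Sct (-0.20) and Sst (-0.20) the ratios overlapped between groups. Leaving out 1 library moved these ratios in both directions. Gip ran from -1.52 (without KO75) to -0.37 (without KO72), and Sct from -0.34 (without KO75) to -0.0066 (without KO72). Ghrl ran from -0.77 (without WT187) to -0.16 (without WT186), and Gcg from -0.82 (without KO72) to -0.13 (without WT185). Cck and Tph1 moved as well, Cck from -2.11 to -1.29 and Tph1 from -0.79 to -0.30, in each case without WT187 and without WT186. Pyy (1.95), Nts (1.16) and Tac1 (0.12) had higher mean ratios under the Trmt6-/- label, also with overlap.

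Other genes of enteroendocrine cells were counted from lists of known function. For comparison, 9.03% of all genes tested separated the groups on the low side and 9.7% on the high side. Of 18 tested genes of hormone processing and granules, 0 passed the edgeR threshold, 9 separated the groups on the low side and 1 on the high side (median log2 fold change -0.79). Chgb, a granule protein, measured 62.6, 62.9 and 74.7 against 150, 206 and 127 CPM (-1.27 ± 0.21, unadjusted p = 0.00055, edgeR adjusted p = 0.128). Pam, which amidates peptide hormones and is also made outside endocrine cells, was the one on the high side at 34.7, 35.97 and 22.8 against 17.9, 11.3 and 15.7 CPM (1.06 ± 0.26). Of 23 tested transcription factor genes of the lineage, 0 passed, 11 were separate on the low side and 0 on the high side (median -0.86). Those with the smallest p were Myt1 (-1.42 ± 0.33), Insm1 (-0.96 ± 0.25) and Rfx6 (-1.42 ± 0.38).

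Of 11 tested nutrient and irritant sensor genes, 0 passed, 4 were separate on the low side and 1 on the high side (median -0.36). Trpa1, the irritant channel of enterochromaffin cells, measured 0.113, 0.768 and 0.640 CPM against 5.84, 10.1 and 5.51 CPM (2, 11 and 9 counts against 112, 148 and 92; -3.83 ± 0.65, edgeR adjusted p = 0.130). Ffar4, a receptor for long-chain fatty acids, was on the high side at 8.35, 5.66 and 6.12 against 4.64, 1.09 and 1.98 CPM. Of 11 tested genes of serotonin handling besides Tph1, 0 passed, with 2 separate on each side. Counts this small, here and among the sensors, stand beside 9.03% (low) and 9.7% (high) of all genes and were not tested. Ddc, the decarboxylase that completes serotonin synthesis and is also abundant in enterocytes, measured 61.7, 88.8 and 108 against 129, 543 and 160 CPM. The 2 vesicle transporters of monoamines lay on opposite sides: Slc18a2 was on the low side (2.40 ± 0.236 against 4.18 ± 0.863 CPM, SD, n = 3), and Slc18a1, the one typical of enterochromaffin cells, on the high side (17.6, 16.6 and 17.4 against 13.1, 13.6 and 13.3 CPM). Gch1, whose product begins the synthesis of the TPH1 cofactor, was on the high side too (26.0 ± 0.433 against 17.4 ± 3.45 CPM).

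Only 5 of 31 hormone receptor genes were abundant enough to test, 0 passed, 1 (Gipr) was separate on the high side, and 9 of the 31 had no count in any library. The GLP-1 receptor gene Glp1r measured 3.10, 8.17 and 17.7 against 4.53, 12.9 and 17.0 CPM, with full overlap. Those with the smallest p were Gipr (0.93 ± 0.55), Sstr1 (-0.63 ± 0.45) and Sstr5 (-0.44 ± 0.62). Of 14 genes of peptidases, several of which can cleave gut hormones, 0 passed, 3 were separate on the low side and 1 on the high side (median 0.14). As above, 9.03% of all genes were separate on the low side and 9.7% on the high side. Mme, neprilysin, was separate on the low side (-2.04 ± 0.60), as was Ece1 (-0.49 ± 0.18), and Enpep on the high side (0.91 ± 0.30). Dpp4, which inactivates GLP-1 and GIP, measured 862, 1456 and 1455 against 463, 972 and 949 CPM with overlap. Among 20 further gut peptide genes, 6 were tested, 0 passed and 1 was separate on the high side, and 7 had no count at all, Vip and Npy among them. The one on the high side was Guca2a, the guanylin gene (430.1 ± 56.0 against 127 ± 79.6 CPM, SD, n = 3), with Adm (0.71 ± 0.45) and Guca2b (0.50 ± 0.49) next by p.

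**Figure D5:**
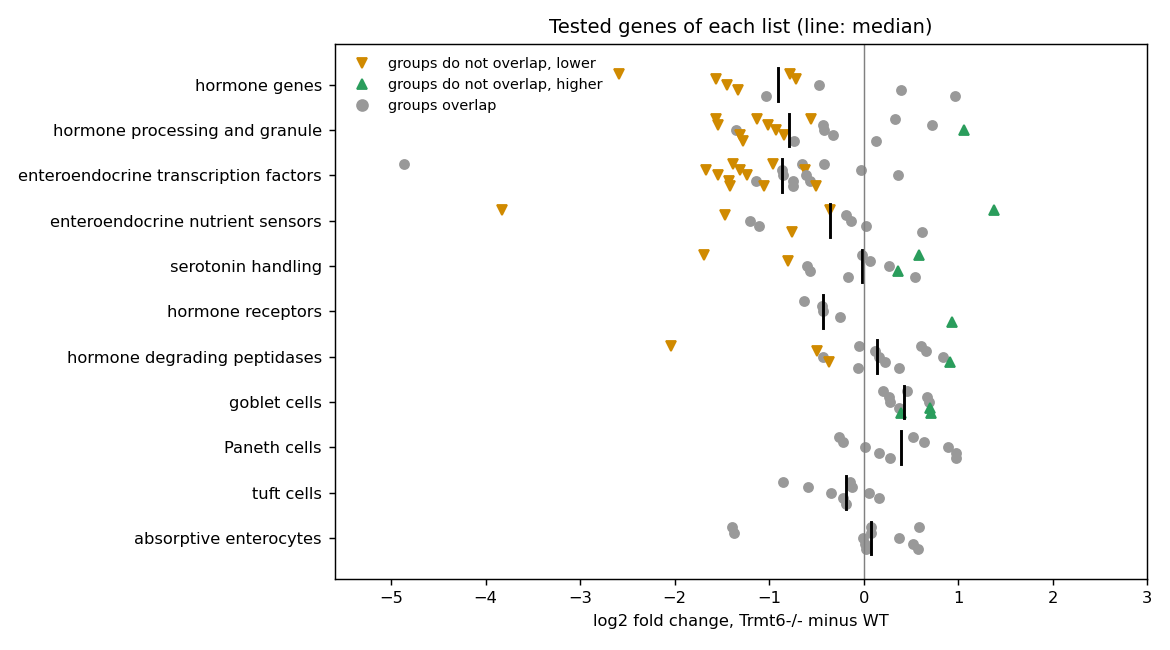
Log2 fold change (horizontal axis, libraries labelled Trmt6-/- minus WT) of each tested gene of 11 lists, with a line at the list median; downward triangles are genes whose groups are separate on the low side, upward triangles on the high side, and circles overlap. Hormone, granule and transcription factor genes have medians of -0.91, -0.79 and -0.86, and goblet and Paneth cell genes 0.42 and 0.40.

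The other secretory lineages are given beside these for scale, and the difference between lists was not tested. Of 10 goblet cell genes 0 were separate on the low side and 3 on the high side (median 0.42), of 10 Paneth cell genes 0 and 0 (median 0.40), and of 9 tuft cell genes 0 and 0 (median -0.19). The shares over all genes were 9.03% and 9.7%. Fcgbp, the goblet cell gene with the most CPM, measured 6861, 7881 and 10669.5 against 4930.1, 6197 and 8489 CPM, and the Paneth cell lysozyme gene Lyz1 measured 2632, 1501 and 2146 against 4268, 549 and 1399 CPM. The next by CPM, Zg16 and Defa24, and the tuft cell genes Trpm5 and Dclk1 also overlapped between groups. WT186, the highest library for 6 of the 10 hormone genes, was thus the lowest for Lyz1.

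The genes whose pattern over the 6 libraries was most like the mean of the 10 hormone genes were sought among 10346 other genes of at least 5 CPM, by the root mean square difference of library-centred log2(CPM + 0.5). They were Ppargc1b (0.043), Dmac2 (0.088), Bdh1 (0.088), Pycrl (0.10) and Pnkd (0.11), against a median of 0.47 over all 10346. Ppargc1b, which encodes a coactivator of mitochondrial and lipid metabolism, measured 19.2, 21.4 and 24.1 against 35.7, 36.7 and 31.0 CPM. By this measure Chga had rank 92 at 0.19, and Chgb had rank 1281 at 0.32.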

How the data were processed

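RNA was extracted from intestinal tissue, amplified as cDNA and made into libraries with a transposase kit, per the labels' protocols. The authors deposited whole-number counts per gene, made with featureCounts 2.0.1 on paired reads against GENCODE M23 exons per the file headers, with no strand option. The submitters' processing notes name fastp, HISAT2 and the mm10 build. The exon length column is as deposited. Columns name a group but no replicate number. No molecular identifiers are named, so counts may include PCR copies.

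Symbols came from GENCODE M21 (GRCm38 as well), matching 55154 of 55335 genes. Low genes were removed with filterByExpr. After TMM scaling, edgeR 4.0.16 was run (quasi-likelihood F test, two-sided, genotype only, R 4.3.3) over 14107 genes with Benjamini-Hochberg adjustment at 0.05; the common biological coefficient of variation was 0.345. The code was tested on simulated data. Alternatives used limma 3.58.1, DESeq2 1.42.0, other scalings and filters, a regional covariate and each library left out. Counts at an unadjusted p and of separated groups, with their alternatives, and an index over the whole regional lists were added after seeing the data. The p-values measure the spread between 3 animals a group.

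The members and lists were chosen with earlier results of these data known. All members are named; from the hormone-related lists the 3 genes of smallest p plus Chga, the 2 most abundant genes of each marker list (named only where they bear on a hormone or a lineage compared), and the 5 most alike genes. A gene that this rule names among the nutrient sensors is not reported here. Glp1r, Dpp4, Npy, Slc18a1, the regional genes outside the index and the defining subsets of the marker lists were chosen after their values were seen.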

Additional observations from a re-analysis of the deposited data

How the results depend on the processing

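No paired analysis was possible because the deposited columns carry no replicate numbers. Members past the threshold numbered 0 in the edgeR fit and with limma-voom (with or without sample quality weights), other scalings, the stricter filter, both regional covariates and each library left out, but 2 with DESeq2 and 1 (Cck) with no low-count filter. Over all genes, 6 passed in edgeR, 633 in DESeq2, 385 in limma-voom with weights, 159 with no filter, 4 with upper-quartile scaling, 574 with the whole-list index, 0 in limma-voom, with library totals or with the first index, and 0 to 6 with 1 library left out. Members on the low side at an unadjusted p below 0.05 numbered 6 in the edgeR fit. They numbered 7 with DESeq2 (6.82% of all genes) and with no low-count filter (4.16%), and 8 in limma-voom with weights (12.1%). With upper-quartile scaling or library totals Gip took the place of Gcg among the 6. The number was 2 once either regional index entered the fit (against 10.7% of all genes with the index of 8 genes and 13.3% with the whole lists). It was 3 to 6 with 1 library left out (3 without KO73 or WT186, where 3.29% and 4.68% of all genes were). The median log2 fold change of -0.91 was -0.51 with the first index, -0.40 with the second, and ran from -0.9996 to -0.71 with 1 library left out (-0.71 without WT186). Nts turned sign with the first (-0.20) and the second (-0.47), as did Pyy with the second (-0.33). Nts ran from -0.00057 to 0.84 with 1 library left out; the cause was not tested. The other 8 members kept their direction in all 16 alternative fits. The count of separated members on the low side was 6 under the 3 other scalings (8.47% to 11.5% of all genes) and 6 to 8 with 1 library left out (11.3% to 16.4%), and was not made in the other fits. Relative to Chga the count of 2 became 1 with the mean of 5 enteroendocrine genes as reference and 2 to 4 with 1 library left out (4 without KO75). The share of all genes so separated was found only for Chga with all 6 libraries (1.09%). Groups separate more easily with 1 library fewer, so the other counts have no share to be read against. With the mean of 5 genes as reference Sct (0.19) and Sst (0.19) turned sign. With 1 library left out Sst ran from -0.36 to 0.079 and Tac1 from -0.19 to 0.30, relative to Chga. Ghrl, at 12 to 87 counts a library, and Pyy, at 9 counts in WT186, were limited by depth.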
